A study of Mus musculus with 8 samples.

Results

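The genes of the 3 osteoclast coupling factors RANKL (*Tnfsf11*), OPG (*Tnfrsf11b*) and M-CSF (*Csf1*) were taken by symbol from the table of 24346 genes. Each symbol gave 1 gene, and all 3 were tested, as were 15342 genes in all whose mean reached 0.1 RPKM (read number normalized to transcript length and to the size of the library). Values came from bone marrow mesenchymal stem/stromal cells (MSCs), plastic-adherent cells with the capacity for bone, fat and cartilage formation. There were 8 libraries, 2 for each of undifferentiated WT, differentiating WT, undifferentiated KO and differentiating KO MSCs. WT were *Dnmt3l*+/+ littermates and KO were *Dnmt3l*-/-, both on a C57BL/6 background. DNMT3L is a cofactor of the de novo DNA methyltransferases without enzyme activity of its own.

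MSCs were harvested from female mice of 8 to 16 weeks, cells of 3 mice were mixed for each genotype, cells carrying CD11b or CD45 were removed with magnetic beads, and all cultures were at passage 4. Undifferentiated cells were grown in 20% serum. Differentiating cells had spent 3 days in medium with 10% serum, 0.1 μM dexamethasone (a glucocorticoid), L-ascorbic acid 2-phosphate at 50 μM and β-glycerophosphate at 10 mM. In the paper's protocol this medium was added at confluence, and the density of undifferentiated cells at harvest is not given. The medium components, the serum change, cell density and time in culture therefore cannot be told apart. The sources do not say whether replicate libraries derive from separate cell mixes, so the p-values measure only the spread between these libraries, which may be technical.

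Osteoclasts, the cells that resorb bone, form from precursors of the macrophage lineage. M-CSF keeps these precursors alive and dividing through its receptor CSF1R, and RANKL on stromal and bone-forming cells, or shed from them, drives their differentiation through the receptor RANK. OPG is a secreted decoy receptor that binds RANKL and keeps it from RANK, so the RANKL to OPG ratio of stromal cells is a common measure of their support for osteoclasts. Glucocorticoids are known to lower OPG expression in bone-forming cells.

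*Dnmt3l* was listed at 0 RPKM in all 4 KO libraries, and at 1.56 and 1.09 RPKM in undifferentiated and 0.845 and 0.830 RPKM in differentiating WT MSCs. In the paper the WT reads covered only the later exons of *Dnmt3l*, and the canonical protein was not detected in MSCs. A listed 0 can be a failed estimate in this table, since *Actb* was listed at 0 in undifferentiated KO MSCs. None of the 3 genes was listed at 0 in any library. The step size of low values gave a depth of 48.5 to 67.1 M scaled reads a library. At that depth 580 to 758 reads lay behind a *Tnfsf11* value, for a counting error of 3.63% to 4.15%, and 1156 to 13395 reads behind a *Tnfrsf11b* value. These errors cover counting only. Lymphocyte markers, of cells that can also make RANKL, were all under 1 RPKM (7 of 7 genes, summed 0.229 to 0.409 RPKM), with *Cd3e*, *Cd3g* and *Ms4a1* listed at 0 throughout. MSC and stromal markers were present in every library, with all 11 genes above 1 RPKM, a summed level of 1513 to 3396 RPKM, and *Pdgfrb* at 52.2 to 84.5 RPKM.

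The promoters of the ligand genes are shown because their transcripts differed in how they changed. In mm10, *Tnfsf11* occupies chromosome 14 between 78277445 and 78308043 (minus strand, 5 exons). *Csf1* occupies chromosome 3 between 107741048 and 107760469 (minus strand, up to 9 exons over 7 annotated transcripts). *Tnfrsf11b* occupies chromosome 15 between 54250619 and 54278484 (minus strand, 5 exons). The RefSeq promoter table (GRCm38.p6) held 2 of the 3 genes. The 250 bases that end just before the start of transcription are given 5′ to 3′ on the gene's strand, at chr14:78308044-78308293 for *Tnfsf11* and chr3:107760470-107760719 for *Csf1*. Capitals mark matches to the 5 motifs searched on both strands.
Tnfsf11: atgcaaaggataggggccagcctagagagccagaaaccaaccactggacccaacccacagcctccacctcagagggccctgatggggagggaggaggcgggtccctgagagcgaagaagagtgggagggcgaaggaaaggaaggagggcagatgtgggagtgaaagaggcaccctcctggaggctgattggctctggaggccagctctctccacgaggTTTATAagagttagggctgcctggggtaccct
Csf1: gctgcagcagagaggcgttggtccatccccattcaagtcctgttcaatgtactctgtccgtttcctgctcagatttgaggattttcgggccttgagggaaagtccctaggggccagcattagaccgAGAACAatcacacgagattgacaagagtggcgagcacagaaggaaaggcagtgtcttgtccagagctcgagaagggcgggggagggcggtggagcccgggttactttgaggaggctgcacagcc
The motif searched for RUNX factors was TGTGGT. The motif for a TATA element was TATAAA. The motif for TCF/LEF factors was CTTTGAT. A part of the glucocorticoid receptor site was searched as AGAACA, and the AP-1 site as TGACTCA. No matches overlapped in these windows. The *Tnfsf11* window held 1 match, the TATA motif on the reverse strand with its first printed base 32 bases before the start. Of 32851 promoters of the same length, 12.4% held that motif. The *Csf1* window held 1 match, the glucocorticoid receptor motif at 124 bases before the start, which 16.1% of the promoters held. The RUNX, TCF/LEF and AP-1 motifs were in neither window, against 14.0%, 3.2% and 4.5% of all promoters. The *Tnfsf11* window had a GC content of 60.4% and 4 CpG sites, the *Csf1* window 56.4% and 10, and the median promoter 52.4% and 6. These matches describe the letters only.

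The 3 genes stood at different heights. *Csf1* was among the most abundant genes, with 97.6% to 98.7% of the tested genes below it depending on the group. *Tnfsf11* was near the middle, with 45.0% to 51.4% of the tested genes below it. *Tnfrsf11b* moved most in rank, from 94.1% of genes below it in undifferentiated WT to 58.2% in differentiating KO MSCs.

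**Figure D1:**
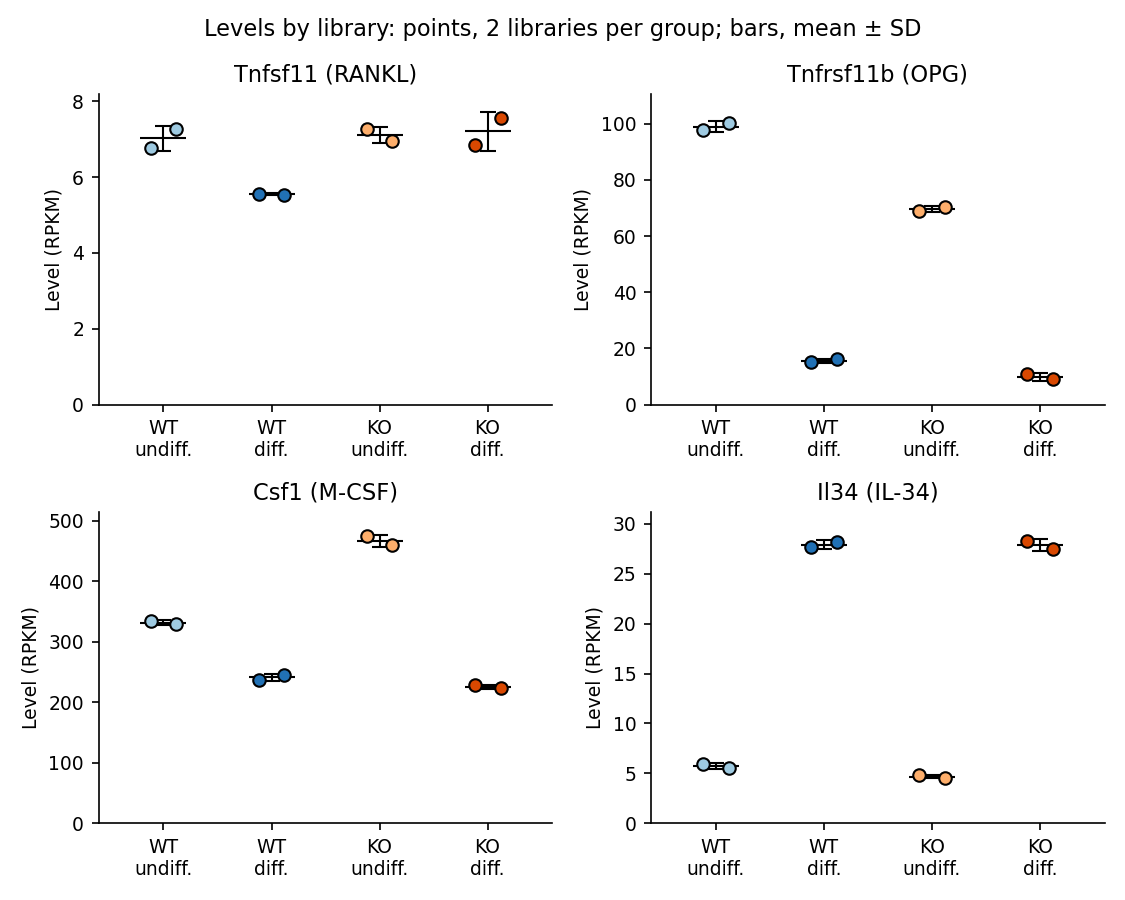
Levels in RPKM (vertical axes, from 0) of *Tnfsf11*, *Tnfrsf11b*, *Csf1* and the second CSF1R ligand gene *Il34* in the 4 groups (horizontal axes), with a point for each library and bars for mean ± SD (n = 2). *Tnfrsf11b* fell to 8.98 to 16.1 RPKM in all 4 differentiating libraries, and *Il34* stood between 27.5 and 28.3 RPKM in them.

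RANKL. In the values as deposited, *Tnfsf11* fell with induction in WT MSCs and stayed within its spread in KO MSCs. The genotypes differed after induction and not detectably before it. The summed RPKM of all genes was highest in the differentiating KO libraries and lowest in the undifferentiated KO libraries. A scaling to equal sums was not tried. It would shrink the *Tnfsf11* difference between genotypes after induction and raise that before it, and so shrink the interaction. In undifferentiated WT MSCs the values were 6.78 and 7.26 RPKM, and in differentiating WT MSCs 5.56 and 5.54 RPKM. In undifferentiated KO MSCs they were 7.25 and 6.96 RPKM, and in differentiating KO MSCs 6.84 and 7.56 RPKM. The pair of differentiating WT libraries lay below all others, and the ranges of the other 3 groups overlapped each other. In WT MSCs *Tnfsf11* fell 1.26-fold with induction (log2 fold change -0.33, standard error 0.0613, adjusted p = 0.0039, limma with Benjamini-Hochberg adjustment as for all adjusted p-values here). At that threshold, an adjusted p under 0.05, 64.4% of all tested genes changed in this comparison. In KO MSCs the log2 fold change was 0.02 (95% interval -0.13 to 0.17, adjusted p = 0.82), where 72.9% of all genes passed. Differentiating KO MSCs held 1.30-fold the *Tnfsf11* level of differentiating WT MSCs (log2 0.37, standard error 0.0613, adjusted p = 0.0063), a comparison in which 40.7% of all genes passed. Before induction the genotype difference was 0.02 on the log2 scale (95% interval -0.13 to 0.17, adjusted p = 0.85), with 32.2% of all genes passing. The change with induction in KO minus that in WT, the interaction, was 0.35 (standard error 0.0867, adjusted p = 0.023), and 39.4% of all genes passed this test. That last call rests on few libraries, since without 5 of the 8 libraries in turn (undifferentiated WT replicate 2, either differentiating WT replicate, either undifferentiated KO replicate) its adjusted p lay between 0.056 and 0.081.

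OPG. *Tnfrsf11b* was the gene with the largest change of the 3, and it fell with induction in both genotypes. Undifferentiated WT MSCs had 97.6 and 100.3 RPKM, and differentiating WT MSCs 15.1 and 16.1 RPKM. Undifferentiated KO MSCs had 68.9 and 70.5 RPKM, and differentiating KO MSCs 10.9 and 8.98 RPKM. No 2 groups overlapped, and the order from high to low was undifferentiated WT, undifferentiated KO, differentiating WT and differentiating KO. How many of all tested genes had groups without overlap was not counted, here or for the other statements on overlap. Induction lowered *Tnfrsf11b* 6.34-fold in WT MSCs (log2 fold change -2.66, standard error 0.0894, adjusted p = 3.9e-06) and 7.01-fold in KO MSCs (-2.80, adjusted p = 1.8e-06). It was a differentially expressed gene (DEG, an absolute log2 fold change above 1 in addition) in both, as were 14.3% of all tested genes in WT and 22.9% in KO MSCs. Only 0.939% of tested genes fell further in WT, and 1.81% in KO MSCs. The difference between these changes was -0.15 (95% interval -0.46 to 0.16, adjusted p = 0.40). Without replicate 1 of differentiating KO MSCs it was -0.28 with an adjusted p of 0.024.

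KO MSCs held less *Tnfrsf11b* than WT MSCs in both states. The level was 1.42-fold lower in undifferentiated KO MSCs (log2 -0.51, adjusted p = 0.0096) and 1.57-fold lower in differentiating KO MSCs (-0.65, adjusted p = 0.0034). An adjusted p under 0.05 was also reached by 32.2% of all genes in undifferentiated and 40.7% in differentiating cells. Neither difference reached the DEG limit, which 1.70% of all genes passed in undifferentiated and 3.30% in differentiating cells. Without undifferentiated WT replicate 2 or either undifferentiated KO replicate, the adjusted p of the undifferentiated difference was 0.055 to 0.063.

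M-CSF. *Csf1* was higher in KO than in WT MSCs before induction and fell further in KO MSCs, to 223 to 245 RPKM over both genotypes. Undifferentiated WT MSCs had 334 and 329 RPKM, and differentiating WT MSCs 237 and 245 RPKM. Undifferentiated KO MSCs had 474 and 459 RPKM, and differentiating KO MSCs 228 and 223 RPKM. The order from high to low was undifferentiated KO, undifferentiated WT, differentiating WT and differentiating KO, and the last 2 groups lay closest. Undifferentiated KO MSCs held 1.41-fold the WT level (log2 0.49, standard error 0.0368, adjusted p = 0.00068), a comparison in which 32.2% of all genes passed. Induction lowered *Csf1* 1.38-fold in WT MSCs (-0.46, adjusted p = 0.00011) and 2.07-fold in KO MSCs (-1.05, adjusted p = 2.5e-06), where 64.4% and 72.9% of all genes passed. Only the fall in KO MSCs was past the DEG limit (-0.99, short of it, under quantile normalization), as were 22.9% of all genes in KO MSCs. The fall was larger in KO MSCs by 0.59 on the log2 scale (interaction -0.59, standard error 0.0521, adjusted p = 0.0011), a test that 39.4% of all genes passed. This interaction was short of the DEG limit, which 6.17% of all genes passed. In differentiating cells the difference of -0.10 did not pass (95% interval, not adjusted for the number of genes, -0.19 to -0.01, adjusted p = 0.086), although the pairs of libraries did not overlap.

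**Figure D2:**
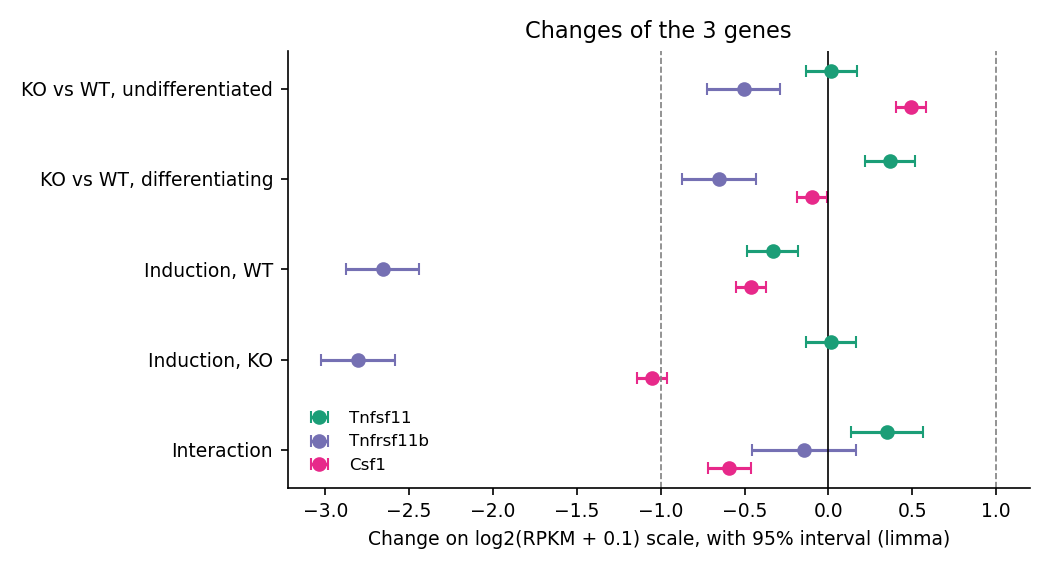
Changes of *Tnfsf11*, *Tnfrsf11b* and *Csf1* on the log2(RPKM + 0.1) scale (horizontal axis) in the 4 comparisons and the interaction (vertical axis), with 95% intervals from limma and dashed lines at the DEG limit of 1 in each direction. *Tnfrsf11b* stands near -2.66 and -2.80 for induction in WT and KO MSCs, and *Tnfsf11* lies near 0 in 2 of the 5 rows.

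The ratio of *Tnfsf11* to *Tnfrsf11b* RPKM, which is per transcript length, was lowest in undifferentiated WT and highest in differentiating KO MSCs. It was 0.0694 and 0.0724 in undifferentiated WT and 0.369 and 0.343 in differentiating WT MSCs. It was 0.105 and 0.0987 in undifferentiated KO and 0.628 and 0.841 in differentiating KO MSCs. The 4 groups did not overlap, and OPG transcript was the more abundant of the pair in all 8 libraries, from 14.4-fold to 1.19-fold. Induction raised the ratio 5.02-fold in WT MSCs and 7.13-fold in KO MSCs. KO MSCs had 1.44-fold the WT ratio before and 2.04-fold after induction. Over both genotypes the induction difference was 2.58 on the log2 scale, and over both states the genotype difference was 0.777. An exact two-sided permutation test, with labels permuted within the other factor, gave p = 0.0556 for each, the smallest p that its 36 arrangements allow. The induction and genotype differences in single groups of 2 libraries could not go below an exact permutation p of 0.333. The log2 ratio rose by 0.506 more in KO than in WT MSCs, a value with no test, which was 0.717 without differentiating KO replicate 1 and 0.295 without differentiating KO replicate 2.

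**Figure D3:**
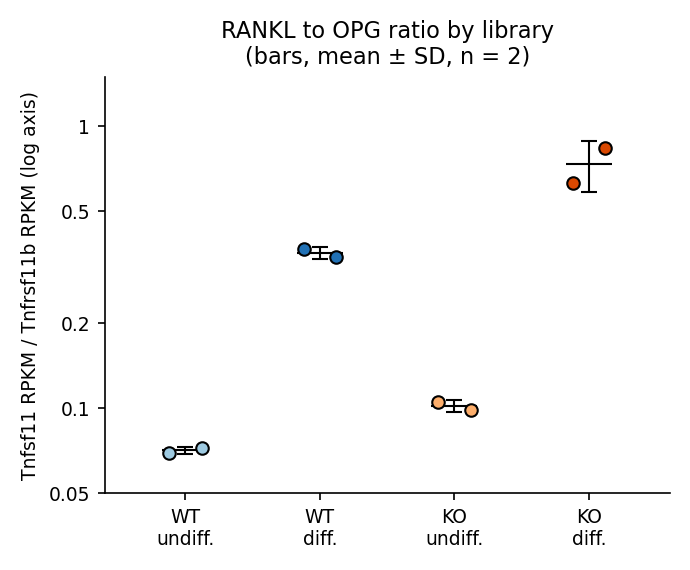
Ratio of *Tnfsf11* to *Tnfrsf11b* RPKM (vertical log axis) in the 4 groups (horizontal axis), with a point for each library and bars for mean ± SD (n = 2). The group means are 0.0709 and 0.356 in undifferentiated and differentiating WT and 0.102 and 0.735 in undifferentiated and differentiating KO MSCs.

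The receptors that define osteoclast precursors were low. *Tnfrsf11a*, which encodes RANK, stood at 0.0741 to 0.228 RPKM in all 8 libraries, and its only change that passed was a fall with induction in KO MSCs (log2 -0.51, adjusted p = 0.040). *Csf1r*, the receptor of M-CSF, was at 1.53 and 1.43 RPKM in undifferentiated WT and 0.710 and 0.698 RPKM in differentiating WT MSCs. In KO MSCs it was at 1.89 and 1.90 RPKM before and 0.405 and 0.352 RPKM after induction. *Csf1r* thus took the same order of groups as *Csf1*, and fell in WT (-0.97, adjusted p = 0.00018) and further in KO MSCs (-2.06, adjusted p = 4.9e-06, interaction -1.09, adjusted p = 0.0019). *Lgr4*, a Wnt-pathway receptor that also binds RANKL, was at 14.0 to 28.4 RPKM and fell with induction in both genotypes (-0.64 and -0.97). Of all 19 genes for receptors and signalling of RANKL and M-CSF, 6 rose and 4 fell in WT (52.6% passed, against 64.4% of all tested genes) and 9 rose and 9 fell in KO MSCs (94.7%, against 72.9%) with induction. The medians of their log2 changes were 0.08 in both genotypes, against 0.00 for all tested genes. *Mitf*, a transcription factor of osteoclasts and melanocytes, rose by 1.47 in WT and 1.83 in KO MSCs. *Fos*, a part of the AP-1 dimer, was lower in undifferentiated KO than WT MSCs (-1.85, adjusted p = 0.00016), with 13.3 and 14.5 RPKM in WT and 3.53 and 4.04 RPKM in KO libraries.

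Macrophages carry *Csf1r* and respond to M-CSF, so their markers, a list that itself holds *Csf1r*, were read beside these values. Of the 10 macrophage and myeloid markers 4 were under 1 RPKM in every library. Their summed level was 18.8 to 20.4 RPKM in undifferentiated WT, 33.3 to 38.8 RPKM in differentiating WT, 8.76 to 9.60 RPKM in undifferentiated KO and 14.0 to 14.9 RPKM in differentiating KO MSCs. In WT MSCs most of this sum was *Lyz2*, a lysozyme gene, at 12.8 and 13.4 RPKM before and 22.9 and 26.5 RPKM after induction. In KO MSCs *Lyz2* was a smaller part, at 3.43 and 3.19 RPKM before and 6.81 and 7.66 RPKM after induction. Of 8 tested, 4 were lower and 2 higher in undifferentiated KO than WT MSCs, where 17.5% of all genes were lower and 14.7% higher. In differentiating KO MSCs 7 were lower and 1 higher, against 22.9% and 17.8% of all genes. Without *Csf1r*, a choice made after seeing the data, 4 of 7 were lower and 1 higher in undifferentiated and 6 were lower and 1 higher in differentiating KO MSCs. Without *Csf1r* and *Lyz2* the sum was 4.40 to 5.60 RPKM in undifferentiated WT, 9.64 to 11.6 RPKM in differentiating WT, 3.67 to 4.29 RPKM in undifferentiated KO and 6.75 to 6.93 RPKM in differentiating KO MSCs. *C1qa*, a complement gene of macrophages, was at 0.741 and 1.24 RPKM in undifferentiated WT and 0.0708 and 0.0688 RPKM in undifferentiated KO MSCs. *Ptprc*, which encodes CD45, did not exceed 0.127 RPKM, and *Spi1* was listed at 0 in 3 of the 4 KO libraries. *Cd14* was higher in KO MSCs in both states. It was at 1.23 and 1.47 RPKM before and 3.48 and 3.43 RPKM after induction in WT MSCs. In KO MSCs it was at 2.59 and 2.18 RPKM before and 4.67 and 4.90 RPKM after induction, most of the sum without *Csf1r* and *Lyz2*. Of the 6 tested markers in that sum, 6 rose with induction in WT and 2 in KO MSCs, against 31.6% and 36.4% of all genes. The marker sums were higher after induction in both genotypes, whereas *Csf1r* was lower, and the markers' part in the *Csf1r* and *Csf1* values was not tested. In bulk RNA, fewer cells of a type and less RNA per cell cannot be told apart. Of 10 osteoclast markers 7 were under 1 RPKM throughout, with *Calcr*, *Dcstamp* and *Mmp9* not above 0.0339 RPKM. The other 3 were above it. *Ctsk*, a protease that stromal cells also make, was at 116 to 234 RPKM, and *Itgb3*, an integrin subunit of many cell types, at 2.42 to 7.53 RPKM. *Acp5*, which encodes the tartrate-resistant acid phosphatase of osteoclasts, was at 0.778 and 1.02 RPKM in undifferentiated WT and 6.06 and 5.91 RPKM in differentiating WT MSCs. In KO MSCs it was at 1.11 and 0.981 RPKM before and 4.30 and 3.99 RPKM after induction. *Acp5* rose by 2.62 on the log2 scale in WT (adjusted p = 1.4e-05) and 1.89 in KO MSCs (adjusted p = 2.8e-05), and was lower in differentiating KO than WT MSCs (-0.52, adjusted p = 0.020).

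*Il34* encodes the other ligand of CSF1R and moved opposite to *Csf1*. It was at 5.93 and 5.51 RPKM in undifferentiated WT and 27.6 and 28.2 RPKM in differentiating WT MSCs. In KO MSCs it was at 4.79 and 4.56 RPKM before and 28.3 and 27.5 RPKM after induction. The rise was 4.88-fold in WT (log2 2.27, adjusted p = 9.8e-07) and 5.97-fold in KO MSCs (2.55, adjusted p = 3.4e-07), with overlapping groups after induction. *Csf1* remained the more abundant transcript. The mean *Csf1* to *Il34* ratio was 57.99 in undifferentiated WT and 8.62 in differentiating WT MSCs. In KO MSCs it was 99.9 before and 8.07 after induction. Of the other haematopoietic growth factors, *Kitl* (stem cell factor) rose by 2.65 in WT and 2.52 in KO MSCs, and was higher in KO than WT MSCs in both states (0.65 and 0.53). *Csf3* (G-CSF) did not exceed 0.382 RPKM, *Csf2* (GM-CSF) was at or near 0 in all libraries, and of the 10 tested genes of this list, which also holds *Csf1*, *Csf1r* and *Il34*, 4 rose and 4 fell with induction in each genotype (80.0%, against 64.4% of all genes in WT and 72.9% in KO MSCs). Without these 3, a choice made after seeing the data, 3 of 7 rose and 2 fell in each genotype.

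Among 23 tested genes for other osteoclast coupling factors, 8 rose and 13 fell with induction in each genotype (91.3%, against 64.4% of all genes in WT and 72.9% in KO MSCs), with median log2 changes of -0.39 in WT and -0.57 in KO MSCs against 0.00 for all genes. *Ptgs2* (cyclooxygenase-2), whose product PGE2 raises RANKL in bone, was at 143 and 151 RPKM in undifferentiated WT and 5.85 and 6.62 RPKM in differentiating WT MSCs. It was at 184 and 183 RPKM in undifferentiated KO and 2.68 and 1.79 RPKM in differentiating KO MSCs. *Il6*, *Il11* and *Lif*, gp130 cytokines that also act on RANKL expression, fell by 3.89, 2.46 and 2.61 on the log2 scale in WT and by 3.92, 2.64 and 2.47 in KO MSCs. *Ccl2*, a chemokine for monocytes, fell by 1.66 in WT and 2.92 in KO MSCs (interaction -1.26, adjusted p = 0.0098). Inflammatory inducers were nearly absent, with *Il1b* listed at 0 in all libraries and *Tnf* not above 0.0278 RPKM.

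*Postn* (periostin) rose by 2.94 in WT and 3.78 in KO MSCs, from 299 and 315 to 2440.1 and 2264 RPKM in WT and from 135 and 137 to 1880.1 and 1861 RPKM in KO MSCs. *Cxcl12*, which attracts precursor cells, rose by 2.24 in WT and 3.11 in KO MSCs (interaction 0.87, adjusted p = 0.0018). *Sfrp1*, a secreted Wnt inhibitor that can also bind RANKL, rose by 1.09 and 1.13. It was higher in KO than WT MSCs in both states (0.51 and 0.55). *Tgfb1* turned in the opposite direction between genotypes, with a rise of 0.32 in WT (adjusted p = 0.011) and a fall of 1.25 in KO MSCs (adjusted p = 2e-05), at 1.25 to 3.24 RPKM. Between genotypes, 3 of the 23 genes were higher and 6 lower in undifferentiated KO MSCs (39.1%, against 32.2% of all genes), and 5 were higher and 9 lower in differentiating KO MSCs (60.9%, against 40.7%). *Lif* was lower in KO MSCs in both states (-1.18 and -1.04), with 8.84 and 8.94 RPKM in undifferentiated WT and 3.96 and 3.78 RPKM in undifferentiated KO libraries.

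**Figure D4:**
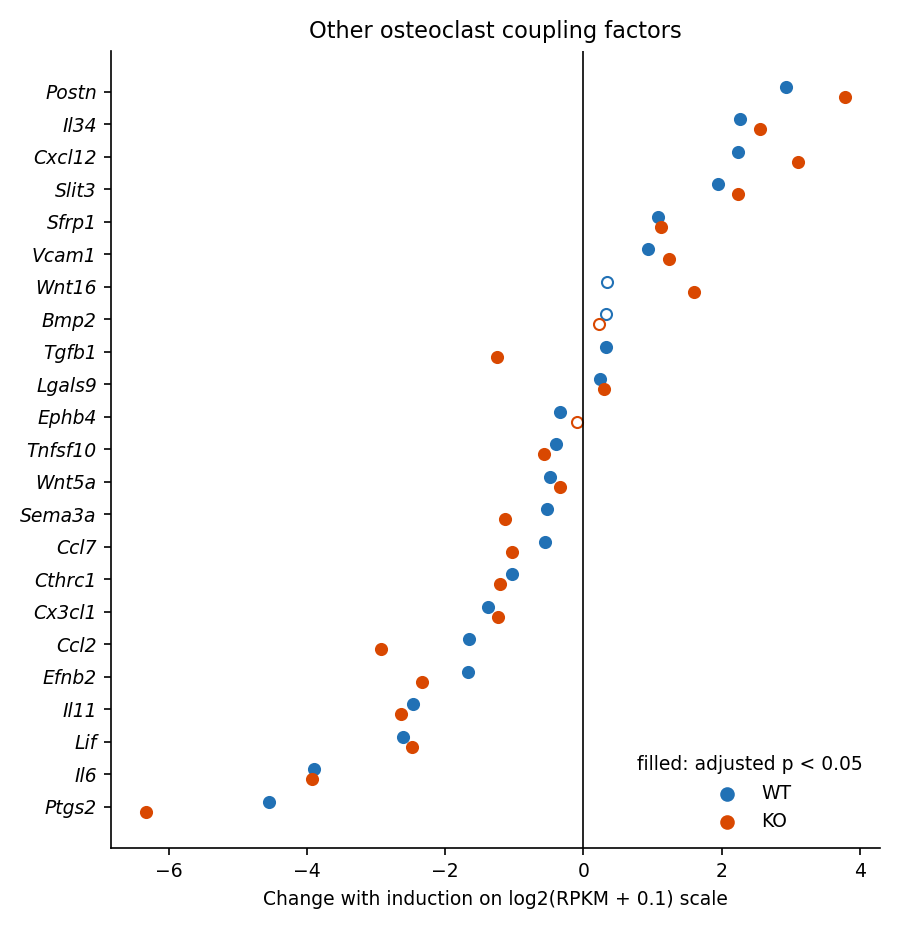
Change with induction on the log2(RPKM + 0.1) scale (horizontal axis) of the 23 tested genes for other coupling factors (vertical axis, ordered by the change in WT), in WT and KO MSCs, filled where the adjusted p was under 0.05. The points run from -6.32 for *Ptgs2* to 3.78 for *Postn*, both in KO MSCs, and *Tgfb1* lies on opposite sides of 0 in the genotypes.

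Receptors for hormones and cytokines that are known to act on *Tnfsf11* and *Tnfrsf11b* came next. Of 18 such genes, 11 rose and 5 fell with induction in WT, where 31.6% of all genes rose and 32.8% fell. In KO MSCs 13 rose and 3 fell, against 36.4% and 36.6% of all genes, with medians of 0.38 and 0.54 against 0.00 for all genes. The largest rises were for *Il6ra* (2.53 in WT and 2.69 in KO MSCs) and *Il1r1* (1.98 and 2.29), and *Il6st*, which encodes gp130, rose by 0.97 and 1.13 from above 100 RPKM. *Vdr*, the vitamin D receptor, fell by 0.99 in WT and 0.56 in KO MSCs (interaction 0.43, adjusted p = 0.011). *Pth1r*, the parathyroid hormone receptor, was lower in KO MSCs in both states (-0.63 and -0.39). *Lifr* was at 21.0 and 19.1 RPKM in undifferentiated WT and 6.31 and 6.41 RPKM in undifferentiated KO MSCs (-1.64, adjusted p = 0.00014). After induction 10 of the 18 were higher and 2 lower in KO than WT MSCs (66.7%, against 40.7% of all genes), with a median of 0.20 against -0.01 for all genes.

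Genes known to respond to dexamethasone, which the induction medium contained, were raised. All 10 on the list passed as higher in both genotypes, as did 31.6% of all genes in WT and 36.4% in KO MSCs, with medians of 4.11 in WT and 4.61 in KO MSCs. *Fkbp5*, a co-chaperone of the glucocorticoid receptor, went from 3.20 and 3.08 to 98.2 and 97.5 RPKM in WT and reached 112 and 108 RPKM in KO MSCs. *Lcn2* was listed at 0 in both undifferentiated WT libraries and 1 of the undifferentiated KO libraries and is given without a fold change. After induction 7 of the 10 were higher in KO than WT MSCs, as were 17.8% of all genes (median 0.30), among them *Tsc22d3* (0.50) and *Mt2* (0.71). *Nr3c1*, the glucocorticoid receptor gene, was at 24.2 and 22.6 RPKM in differentiating WT and 24.4 and 25.5 RPKM in differentiating KO MSCs (adjusted p = 0.14). The part of this response in the *Tnfrsf11b* fall was not tested.

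Wnt signalling is known to raise OPG. Of 8 tested Wnt target genes, 3 rose and 3 fell with induction in each genotype (75.0%, against 64.4% of all genes in WT and 72.9% in KO MSCs), and their part in the *Tnfrsf11b* values was not tested. Between genotypes, 1 of the 8 was higher and 3 were lower in KO MSCs in each state (50%, against 32.2% of all genes in undifferentiated and 40.7% in differentiating MSCs). *Wisp1* fell by 2.96 in WT and 2.84 in KO MSCs and was lower in KO MSCs in both states (-1.16 and -1.03). The gene higher in KO MSCs was *Notum* in both states (0.95, adjusted p = 0.013, and 0.66, adjusted p = 0.033). *Axin2* rose by 0.80 and 0.48, at 0.759 to 1.43 RPKM. Of 4 tested proteases that can release RANKL or M-CSF, 3 rose and 1 fell with induction in WT (100%, against 64.4% of all genes). In KO MSCs 2 rose and 1 fell (75.0%, against 72.9%). In KO against WT, 2 were higher and 1 lower before induction (75.0%, against 32.2%). After it 2 were higher and 2 lower (100%, against 40.7%). *Mmp14*, at 131 to 181 RPKM, fell by 0.21 and 0.25 with induction, and *Adam17* rose by 0.60 and 0.81. *Mmp3*, at 0.0854 to 1.38 RPKM, rose by 1.46 and 2.00 and was higher in KO MSCs in both states (0.86 and 1.39). *Adam10* was higher in undifferentiated (0.17) and lower in differentiating KO MSCs (-0.26).

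Among ligands of the TNF superfamily, most were barely detected. Of 18 such genes 11 were under 1 RPKM in every library, and 9 were tested. *Tnfsf10*, whose product TRAIL also binds OPG, was at 0.628 to 1.11 RPKM and fell with induction in WT (-0.39, adjusted p = 0.015) and KO MSCs (-0.57, adjusted p = 0.0026). *Tnfsf15* fell by 3.25 in WT and 2.49 in KO MSCs, and *Eda* rose by 1.74 and 2.13. Of 23 tested genes of the TNF receptor superfamily, 2 rose and 9 fell in WT (47.8%, against 64.4% of all genes) and 3 rose and 13 fell in KO MSCs (69.6%, against 72.9%) with induction. The list holds *Tnfrsf11b* itself, which had the largest fall of these in WT MSCs, and *Tnfrsf12a* (-3.00), with the largest fall in KO MSCs. *Tnfrsf12a*, the TWEAK receptor, was at 208 and 218 RPKM in undifferentiated WT and 33.2 and 23.5 RPKM in differentiating KO MSCs.

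Markers of the lineages were read for context. Of 10 osteoblast markers, 9 were lower in differentiating KO than WT MSCs (median -0.83), as were 22.9% of all genes, and in undifferentiated MSCs 4 were lower and 1 higher (50.0%, against 32.2%). *Alpl* (alkaline phosphatase) was lower in KO MSCs in both states (-0.97 and -0.84). Of 9 adipogenic markers, 8 rose in WT and 9 in KO MSCs with induction, against 31.6% and 36.4% of all genes. The part of these cell states in the coupling factor levels was not tested.

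Over the 8 libraries the genes whose log2 values followed those of each member most closely were found among the 11974 compared (mean of 1 RPKM or more). For *Tnfsf11* they were *Klhl2* (Pearson r = 0.972), *Stc2*, *Nnt*, *Zfp503* and *Tbx18* (r = 0.957 to 0.947). For *Tnfrsf11b* they were *Xpot* (r = 0.9995), *Hspa9*, *Smim3*, *Asns* and *Atf4* (r = 0.999 for the last). For *Csf1* they were *Por* (r = 0.997), *Pidd1*, *Inppl1*, *Rrs1* and *Rpa1* (r = 0.995 for the last). The libraries form 4 groups of 2, so such values describe mainly the 4 group means. Between the members r was 0.334 for *Tnfsf11* and *Tnfrsf11b*, 0.395 for *Tnfsf11* and *Csf1*, and 0.844 for *Tnfrsf11b* and *Csf1*.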

How the data were processed

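RNA was measured in 8 libraries, grouped by the sample labels, with 2 per group and 0 columns without a sample. After ribosomal RNA depletion the authors mapped short reads, with strand, to mm10 (iGenomes annotation), and they deposited 1 RPKM value per gene and library from Cuffdiff, with replicates not pooled. The submitters' processing notes name TopHat2 2.1.0, Cuffdiff and Cufflinks 2.2.1, and how Cuffdiff scaled libraries is not given in the sources used here. A scaling between libraries moves every fold change but not the *Tnfsf11* to *Tnfrsf11b* ratio. The RPKM values of all genes summed to 930259 and 959431 in undifferentiated WT and 919073 and 949080 in differentiating WT libraries. In KO libraries the sums were 859861 and 871775 before and 1.02199e+06 and 1.03321e+06 after induction. Scaling to equal sums was not tried.

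From there log2(RPKM + 0.1) was fitted with a mean per group over all libraries, with a variance trend (4 residual and 1.98 prior degrees of freedom) and Benjamini-Hochberg adjustment over 15342 genes (limma 3.58.1, R 4.3.3). Fold changes on this scale understate the change of low genes. A DEG had an adjusted p under 0.05 and an absolute log2 fold change above 1. Library depth was estimated from the steps between low values, as the depth with the largest share of whole values (within 0.05 reads). About 70% were whole at that depth, too few for a count test. A depth not chosen this way would give 10% by chance, so the 2 shares are not like for like. The fit was tested on simulated data. Ratios were compared with exact permutation tests in Python 3.11.15, and numpy 2.4.6, pandas 2.3.3 and matplotlib 3.10.9 were used for tables and figures.

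The genes and the 18 gene lists were chosen with earlier results of these data known. The text gives counts for most lists and leaves out the osteocyte, chondrocyte and endothelial markers. It could name any gene of a list of up to 12 and, of longer lists, the genes with the largest change that passed (up to 6 per comparison). *Tnfrsf11a*, *Csf1r*, *Il34*, *Lgr4* and *Tnfsf10* were named in any case, as were the 5 genes most like each member by Pearson r. Values of these genes are also given in comparisons where the rule does not select them, and *Csf2*, *Il1b*, *Tnf* and *Nr3c1* were named after their values were seen. The alternatives were another pseudocount or expression minimum, median centring or quantile normalization of the libraries, no variance trend, a replicate block, only the libraries compared, free permutation, and each library left out. Counts and sums of the macrophage and haematopoietic lists without coupling factor genes or *Lyz2* were added after seeing the data. The DEG calls that the authors made, transposable elements and protein data were not used here, and 1 gene of the lymphocyte markers is not reported here.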

Additional observations from a re-analysis of the deposited data

Results flagged for a closer look

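These genes changed by unequal amounts with induction in the 2 genotypes, by a test of the difference itself (limma, Benjamini-Hochberg adjusted p under 0.05 over 15342 genes), a test that 39.4% of all genes passed. Each value is the log2 change in KO minus that in WT MSCs. Of the 3 coupling factors, *Csf1* fell further in KO MSCs (-0.59, adjusted p = 0.0011), and *Tnfsf11* differed by 0.35 (adjusted p = 0.023), a call that did not hold without any of 5 libraries in turn, with adjusted p from 0.056 to 0.081 in these cases. *Csf1r* (-1.09), *Lgr4* (-0.33) and *Il34* (0.28) differed among their receptors and the second CSF1R ligand. Scaling to equal RPKM sums, which was not tried, would lower all these values and so shrink that of *Tnfsf11*.

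Among other coupling factors the differences were -1.57 for *Tgfb1*, -1.78 for *Ptgs2*, -1.26 for *Ccl2*, 0.85 for *Postn* and 0.87 for *Cxcl12*. Among receptors for known regulators they were 0.98 for *Lifr*, 0.43 for *Vdr*, 0.24 for *Pth1r* and 0.16 for *Il6st*. In the TNF families they were 0.76 for *Tnfsf15*, 0.39 for *Eda* and -1.23 for *Tnfrsf12a*. The differences of the dexamethasone-responsive *Tsc22d3* and *Mt2* were 0.74 and 0.76. Those of *Fos*, *Adam17*, *Adam10* and *Ctsk* were 1.56, 0.21, -0.43 and 0.30. The osteoclast markers *Acp5* and *Itgb3* differed by -0.73 and 0.36. No explanation of these differences was tested.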

How the results depend on the processing

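Of 252 alternative values for the 3 genes (15 comparisons, up to 17 settings), 236 kept their direction and their side of the threshold. The exceptions were as follows. *Tnfsf11* differences near 0 changed sign without passing: between undifferentiated genotypes -0.0041 under median centring and -0.0301 to 0.0673 with a library left out, and with induction in KO MSCs -0.0532 under quantile normalization, -0.065 under median centring and -0.0531 to 0.0874 with a library left out. With a library left out the *Tnfrsf11b* difference between undifferentiated genotypes was -0.5243 to -0.4858 (adjusted p 0.0027 to 0.063), the *Tnfsf11* interaction 0.2794 to 0.4199 (adjusted p 0.013 to 0.081), and the *Tnfrsf11b* interaction -0.2845 to -0.0073 (adjusted p 0.024 to 0.94). Fewer libraries enter these fits, and further causes were not tested. Under quantile normalization the *Csf1* fall in KO MSCs was -0.989, short of the DEG limit. The number of DEGs in undifferentiated cells (261) was 402 with a pseudocount of 0.01 and 99 with 1. With a pseudocount of 1 the other DEG counts were 234 in differentiating cells, 1249 in WT and 2267 in KO induction, against 507, 2198 and 3511, since a larger pseudocount shrinks the change of low genes. Median centring shifted the median of all genes by -0.101 for induction in WT MSCs. The share of DEGs that rose with induction in WT MSCs was 67.7% in the values as deposited and 56.4% under quantile normalization.

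The *Tnfsf11* to *Tnfrsf11b* ratio kept its induction difference of 2.58 with p = 0.0286 (exact, two-sided) when labels were permuted freely, the smallest p of 70 arrangements, and its genotype difference then had p = 0.514. Its interaction was 0.2947 to 0.7171 with a library left out. Same-numbered libraries did not deviate together (r = -0.0936 to 0.0351 between groups), so no pairing by replicate number was seen in the values. Whether same-numbered libraries share an experiment is not known. With the replicate block, *Tnfsf11* differed between differentiating genotypes by 0.37 (adjusted p = 0.014), and no call for the 3 genes changed. Groups of 2 libraries allow no search for outliers, and the depth behind *Tnfsf11* leaves a counting error of about 4% per library.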
